A study of Mus musculus with 6 samples.

Results

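The kinesins are a superfamily of motor proteins that use ATP to walk along microtubules or to take microtubule ends apart. The genes described here were the probe sets whose single gene symbol begins with Kif or Kifc followed by a digit, and a gene with several was represented by the one of highest mean level. They numbered 42 of the 22180 genes with such a probe set, and comprised 12 mitotic kinesins, listed by symbol, and 30 others, most of which carry cargo. Of the 42, 37 passed the filter on dim genes, among them all 12 mitotic kinesins and 25 of the others.

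RNA came from CD4+ T cells of OT II transgenic mice, whose T cell receptor recognises an ovalbumin peptide, and was hybridised to 1-colour whole-transcript arrays. Both groups were of this genotype and were stimulated for 72 h with antigen-presenting cells and the peptide in RPMI-1640 with dialysed serum, after which CD4+ cells were purified again. The control group (n = 3 arrays) had complete medium, and the low arginine group (n = 3 arrays) had medium with 1% of the normal arginine (12 uM). The mice were 12 to 16 weeks old, 6 mice are named for the study, and arrays are labelled as biological replicates, with no statement on pooling or on which mice gave which array. The comparison asks which kinesin genes differed in expression between T cells stimulated with little arginine and T cells stimulated with the usual amount.

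Kinesins are grouped by their motor domains into numbered families. Mitotic kinesins build and lengthen the spindle, move chromosomes to its middle, correct wrong attachments and drive the final cut between daughter cells, and their transcripts are known to accumulate in the later part of the cell cycle. Transport kinesins carry vesicles, mitochondria and endosomes towards microtubule ends in cells that divide and cells that do not, and in T cells they also serve the contact with the antigen-presenting cell.

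Values are log2 expression as deposited, and 1 unit is a 2-fold difference. Group values are means ± SD, a change is low arginine minus control, and "rose" or "fell" is used for a gene with an adjusted p below 0.05 (limma, two-sided, Benjamini-Hochberg over 14787 genes). Array medians lay between 2.97 and 3.03. The cells matched their label: Cd4 stood at 10.33 ± 0.12 in control and 10.09 ± 0.18 in low arginine (SD, n = 3), and Cd3e at 10.77 ± 0.04 and 10.87 ± 0.08. Of 10 T cell markers 1 was called, Trat1, which rose by 2.93 (adjusted p = 6.02e-04), and the log2 of the summed linear levels of the list ran from 12.81 to 12.85 in control and from 12.80 to 12.90 in low arginine. The same sum ran from 5.26 to 5.39 and from 5.29 to 5.39 for 6 B cell markers, from 5.77 to 6.46 and from 6.10 to 6.20 for 6 macrophage and monocyte markers, and from 4.91 to 5.12 and from 5.06 to 5.21 for 5 dendritic cell markers. For 5 plasma cell markers it ran from 9.29 to 9.77 in control and from 8.77 to 8.87 in low arginine, and among them Xbp1, which T cells express too, fell by 0.76 (adjusted p = 0.0157). For 6 CD8 and NK cell markers the sum ran from 7.28 to 7.69 and from 7.05 to 7.43, with Cd8b1 at 6.90 ± 0.34 and 6.24 ± 0.21. Eomes of the same list went the other way, at 4.69 ± 0.45 in control and 5.48 ± 0.29 in low arginine, and neither gene was called. Of 19 markers of other cell types tested, limma called 1 and 4 had an unadjusted p below 0.05, and their part in the kinesin results was not tested.

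The mitotic kinesins were lower in T cells short of arginine. Of the 12, 11 fell, by 1.68 to 2.40 on the log2 scale, which is 3.20-fold to 5.27-fold lower, and the minus-end motor Kifc1 did not pass. The background in this comparison was 6.98% of all genes tested that fell, and in the 25 other kinesins tested it was 2, or 8%. The median change was -2.08 over the mitotic kinesins, -0.01 over the other kinesins tested and 0.01 over all genes tested. For the 11 that fell, every low arginine array lay below every control array, by a margin of 0.70 to 1.27, and the same non-overlap towards lower values was seen in 16.2% of all genes tested. In cells of mixed stage measured in bulk, fewer dividing cells and less of each transcript per cell cannot be told apart.

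**Figure D1:**
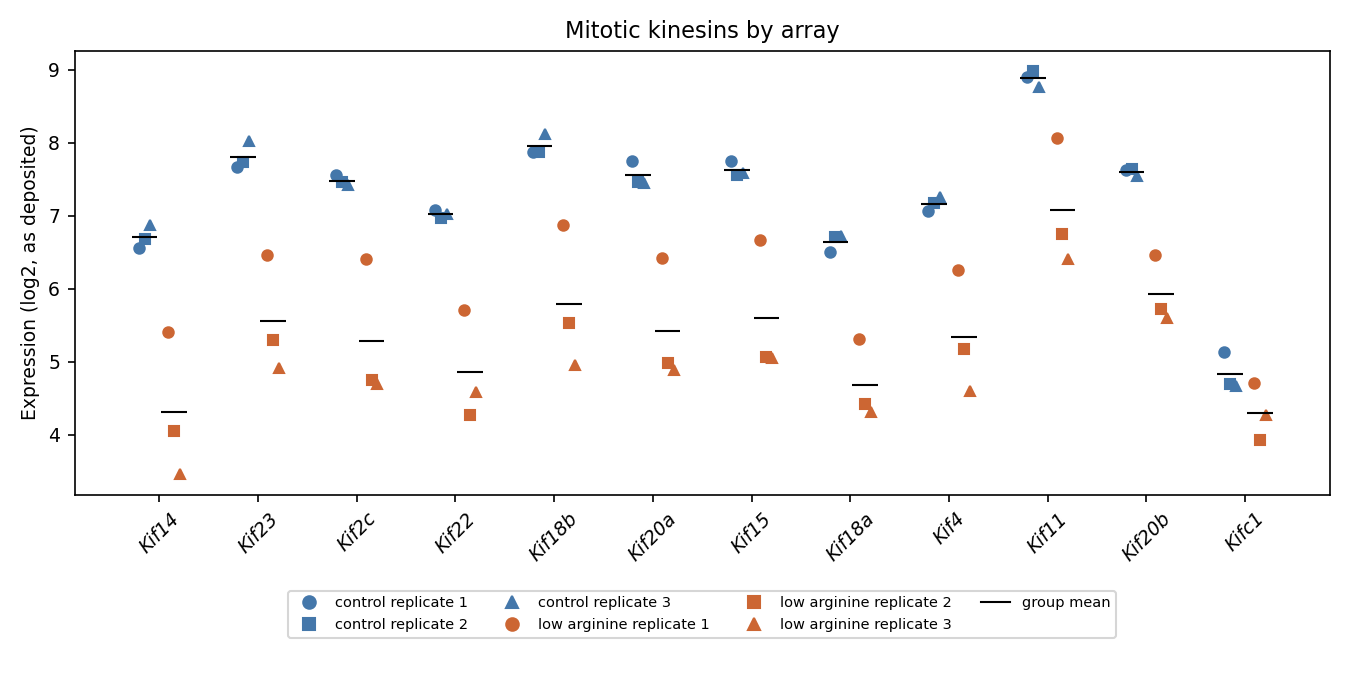
The deposited log2 expression of each mitotic kinesin is plotted for the 3 control arrays (blue) and the 3 low arginine arrays (orange), with marker shapes for replicate numbers and bars for group means. For 11 genes the lowest control lies 0.70 to 1.27 above the highest low arginine array, which is replicate 1 for every gene, and for Kifc1 the groups overlap.

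The number of mitotic kinesins called depended on single arrays, while the direction did not. It was 3 (Kif18a, Kif20b and Kif22) without low arginine replicate 2, 4 without control replicate 2, where Kif23 joined these, and 5 without low arginine replicate 3, where Kif14 joined as well. Leaving out control replicate 3 gave 9, and leaving out replicate 1 of either group gave 11. The lower count over all 14787 genes tested moved too, and was 1032 with all arrays. It ran from 338 without control replicate 2 to 1699 without control replicate 1. The change was below 0 for all 12 in all 15 alternatives run, and the median over the 12 ranged from -2.59 without low arginine replicate 1 to -1.77 without low arginine replicate 3.

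Promoter sequences from RefSeq (GRCm38.p6, 250 bases before to 50 after each transcription start) were matched by symbol for 33 of the 42 kinesins, among them 11 of the 12 mitotic kinesins, all but Kif20a. They were searched on both strands for letters that recur in genes of the late cell cycle: TTTGAA and TTCGAA, forms of the cell cycle genes homology region (CHR), and CCAAT, the box bound by NF-Y. The letters TTTCCCGC, TTTGGCGC and TTTCGCGC, forms of the E2F site, were searched as well, and no matches overlapped each other in the kinesin windows. TTTGAA stood in 10 of the 11 mitotic windows (90.9%), in those of 4 of the 22 other kinesins (18.2%) and in 17.9% of all 32851 windows of this length. CCAAT stood in 7 of the 11 (63.6%), in 9 of the 22 (40.9%) and in 37.4% of all windows, and both CCAAT and a CHR form in 7 of the 11, 4 of the 22 and 7.52% of all windows. Within 30 bases of the start, a distance chosen after the positions had been seen, TTTGAA stood in 8 of the 11 mitotic windows (72.7%), in those of 1 of the 22 other kinesins (4.55%) and in 2.90% of all windows. The E2F letters were found in Kif15 and Kif18a of the 11 and in 1.84% of all windows. The kinesins were counted per gene, with a match at any start. For Kif14 and Kif2c, and for some other kinesins such as Kif3a, the start used lay well inside the annotated gene. Over all 27025 genes counted in this way, the shares were 20.2% for TTTGAA, 41.1% for CCAAT and 8.61% for both CCAAT and a CHR form. They were 3.39% for TTTGAA within 30 bases of the start and 2.12% for the E2F letters. A match is a description of these letters and not a binding site shown in these cells.

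The following promoters run from 150 bases before to 30 after the start, 5′ to 3′ on the strand of the gene. Kif11, Kif18b, Kif22, Kif23, Kif4 and Kifc1 are shown because TTTGAA lies within 30 bases of the start, after a CCAAT box. The distance between these letters differs from gene to gene. Kif18a is shown as the mitotic kinesin with a window but without a CHR form, and Kif24 as a kinesin of the other class that fell. Capitals mark the letters searched, ATTGG is CCAAT read on the opposite strand, TTCAAA is likewise the reverse of TTTGAA, and GCGCCAAA that of TTTGGCGC.
Kif11 (chr19:37376232-37376411, plus strand): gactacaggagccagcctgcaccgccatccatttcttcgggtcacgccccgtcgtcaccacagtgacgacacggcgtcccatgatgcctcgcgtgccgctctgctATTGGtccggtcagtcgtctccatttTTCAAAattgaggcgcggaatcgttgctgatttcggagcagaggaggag
Kif18b (chr11:102925095-102925274, minus strand): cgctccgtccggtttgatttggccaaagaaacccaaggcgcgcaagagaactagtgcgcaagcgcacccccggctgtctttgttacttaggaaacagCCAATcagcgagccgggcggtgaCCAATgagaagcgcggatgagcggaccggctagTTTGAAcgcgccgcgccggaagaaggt
Kif22 (chr7:127042391-127042570, minus strand): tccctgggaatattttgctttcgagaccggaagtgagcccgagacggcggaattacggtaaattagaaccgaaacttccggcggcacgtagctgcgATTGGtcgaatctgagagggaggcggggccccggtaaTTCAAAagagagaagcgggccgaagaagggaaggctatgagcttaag
Kif23 (chr9:61946770-61946949, minus strand): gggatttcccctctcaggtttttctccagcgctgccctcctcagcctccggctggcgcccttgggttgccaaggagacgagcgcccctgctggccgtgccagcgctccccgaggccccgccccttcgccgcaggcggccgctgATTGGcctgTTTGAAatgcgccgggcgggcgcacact
Kif4 (chrX:100625915-100626094, plus strand): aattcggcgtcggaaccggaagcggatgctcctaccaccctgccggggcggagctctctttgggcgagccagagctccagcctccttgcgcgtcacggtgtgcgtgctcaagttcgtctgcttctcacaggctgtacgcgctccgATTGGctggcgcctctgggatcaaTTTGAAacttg
Kifc1 (chr17:33890604-33890783, minus strand): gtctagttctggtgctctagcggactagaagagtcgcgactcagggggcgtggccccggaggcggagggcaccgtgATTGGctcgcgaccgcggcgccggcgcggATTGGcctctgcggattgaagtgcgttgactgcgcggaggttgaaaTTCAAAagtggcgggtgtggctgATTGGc
Kif18a (chr2:109280588-109280767, plus strand): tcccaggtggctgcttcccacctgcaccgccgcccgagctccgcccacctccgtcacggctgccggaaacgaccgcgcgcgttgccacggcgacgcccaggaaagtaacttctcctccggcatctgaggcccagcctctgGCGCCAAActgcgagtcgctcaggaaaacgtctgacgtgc
Kif24 (chr4:41464819-41464998, minus strand): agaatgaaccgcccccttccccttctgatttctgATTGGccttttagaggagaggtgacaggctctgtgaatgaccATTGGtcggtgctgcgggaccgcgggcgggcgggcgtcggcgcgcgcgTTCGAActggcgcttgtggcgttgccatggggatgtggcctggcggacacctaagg

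In Kif11 the CCAAT box lay at positions -45 to -41 and the CHR form at -19 to -14, counted from the start as +1. Kif22 had the same order near its start, with CCAAT at -54 to -50 and a CHR form at -17 to -12, and a further copy of each at -233 to -229 and -215 to -210. The CHR form lay just past the start in Kif18b (4 to 9), Kif23 (3 to 8), Kif4 (20 to 25) and Kifc1 (2 to 7), each with a CCAAT box before it. Kif15 had a CHR form at -19 to -14, next to E2F letters at -27 to -20, and another at -234 to -229, and Kif20b had adjoining copies at 8 to 13 and 14 to 19. In Kif14 and Kif2c the only CHR form was farther off, at -228 to -223 and -103 to -98. The windows of these genes lay wholly inside the annotated gene. That of Kif14 (plus strand) began at 136467598, where the gene begins at 136466301. That of Kif2c (minus strand) ended at 117179022, where the gene reaches 117182624. Their distances are therefore counted from an internal start. Kif24 had TTCGAA at -26 to -21 after CCAAT at -74 to -70 and at 3 places farther from the start, and the windows at both starts of Kif2a held none of these letters.

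**Figure D2:**
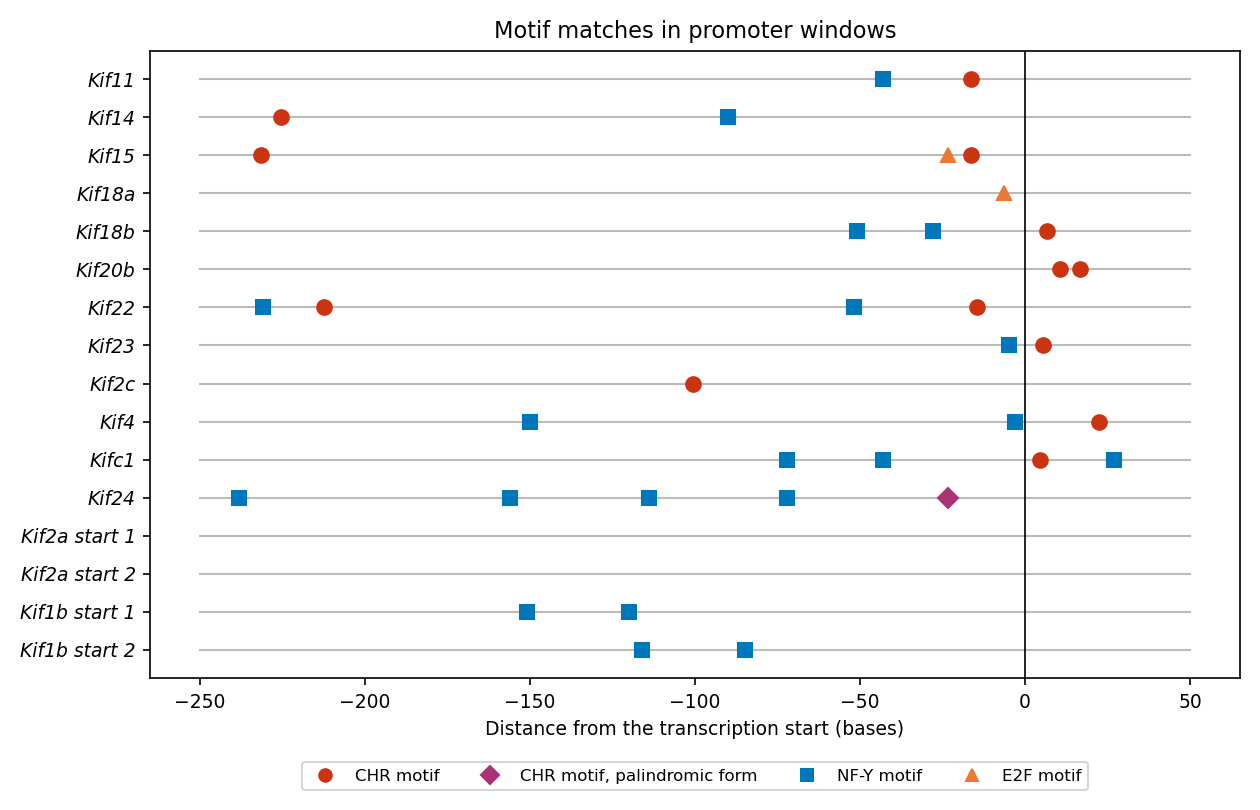
Matches to the CHR, NF-Y and E2F letters are placed by their distance in bases from the transcription start for the 11 mitotic kinesins with a window and for Kif24, Kif2a and Kif1b, the other kinesins that changed. CHR matches lie within 30 bases of the start in 8 of the 11 mitotic windows, and Kif2a has none at either start.

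Among motors that shape the spindle, Kif11, the kinesin-5 that slides antiparallel microtubules to push the poles apart, read 8.90, 8.99 and 8.77 in control replicates 1, 2 and 3 and 8.07, 6.74 and 6.41 in low arginine replicates 1, 2 and 3. The groups did not overlap, and low arginine replicate 1 lay closest to the controls. Kif11 fell by 1.81 (SE 0.38, limma adjusted p = 0.0234). Kif15, a kinesin-12 that keeps the spindle bipolar beside Kif11, gave 7.75, 7.55 and 7.59 in control and 6.67, 5.07 and 5.05 in low arginine. It fell by 2.03 (SE 0.40, adjusted p = 0.0191), and again replicate 1 was the highest low arginine array.

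Kifc1, a kinesin-14 that moves towards minus ends and gathers them at the poles, was the exception among the 12. Its levels were 5.14, 4.70 and 4.66 in control and 4.70, 3.93 and 4.26 in low arginine, and low arginine replicate 1 lay above control replicate 3. The change was -0.53 (95% interval -1.04 to -0.03, adjusted p = 0.161), an interval that reaches a fall of 1.04. Kifc5b, a closely related gene counted with the other kinesins, read 4.12, 5.09 and 5.16 in control and 4.48, 3.83 and 3.80 in low arginine. Its groups overlapped through control replicate 1, and its change was -0.75 (95% interval -1.46 to -0.04, adjusted p = 0.161). Without control replicate 1 the change of Kifc5b was -1.08 (adjusted p = 0.00958), and with array weights it was -1.05 (adjusted p = 0.00247). How far probes of these near copies pick up each other's RNA was not tested, so both values are uncertain.

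The motors that act on microtubule ends fell as well. Kif2c, a kinesin-13 that takes ends apart and frees wrongly attached kinetochores, measured 7.56, 7.46 and 7.42 in control against 6.41, 4.75 and 4.69 in low arginine. It fell by 2.19 (SE 0.42, adjusted p = 0.0168). Kif18a, a kinesin-8 that damps the swinging of chromosomes at the metaphase plate, went from 6.50, 6.71 and 6.72 to 5.31, 4.41 and 4.31. Its fall of 1.97 (SE 0.25, adjusted p = 0.00493) had the lowest adjusted p of the 12 and stayed past the threshold in all 15 alternatives. Kif18b, the kinesin-8 that limits the length of astral microtubules, stood at 7.87, 7.87 and 8.12 in control and 6.87, 5.54 and 4.96 in low arginine, a fall of 2.17 (SE 0.42, adjusted p = 0.0182).

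Both chromokinesins, which bind chromosome arms, were lower. Kif22, the kinesin-10 that pushes arms away from the poles, had control levels of 7.08, 6.97 and 7.02 and low arginine levels of 5.70, 4.26 and 4.59. It fell by 2.17 (SE 0.33, adjusted p = 0.00853), was called in all 15 alternatives, and was the only one of the 11 with its lowest value in low arginine replicate 2. Kif4, a kinesin-4 that works with the bundling protein Prc1 on chromosomes and the central spindle, read 7.07, 7.17 and 7.25 in control and 6.25, 5.17 and 4.60 in low arginine. It fell by 1.82 (SE 0.36, adjusted p = 0.0198), while its pseudogene Kif4-ps lay under the limit for dim genes, at a mean of 2.32.

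The motors of cell division's last step, cytokinesis, held the largest fall. Kif14, a kinesin-3 that brings citron kinase to the midbody, went from 6.56, 6.68 and 6.87 in control to 5.41, 4.05 and 3.45 in low arginine, a fall of 2.40 (SE 0.43, adjusted p = 0.0141). The value in low arginine replicate 3 lay within 1 unit of the dim limit of 2.48, the only such value among the 12. Kif23, the motor of centralspindlin, measured 7.67, 7.73 and 8.02 in control and 6.46, 5.29 and 4.91 in low arginine and fell by 2.25 (SE 0.36, adjusted p = 0.00963). Kif20a, which carries the chromosomal passenger complex to the central spindle, stood at 7.75, 7.46 and 7.45 against 6.42, 4.98 and 4.88 and fell by 2.13 (SE 0.38, adjusted p = 0.0135). Both belong to kinesin-6, as does Kif20b, which helps the midbody to mature. Kif20b read 7.63, 7.65 and 7.54 in control and 6.47, 5.72 and 5.59 in low arginine, the smallest fall of the 11 at 1.68 (SE 0.22, adjusted p = 0.00536), and it too was called in all 15 alternatives.

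The mitotic kinesins varied little among controls and widely among low arginine arrays. Over the 11 that fell, the SD was 0.05 to 0.19 in control and 0.47 to 1.00 in low arginine, and in all 12 it was larger in low arginine, as in 5005 of the 14787 genes tested. Relative to the control mean, the 11 lay lower by 0.81 to 1.35 in low arginine replicate 1, by 1.88 to 2.76 in replicate 2 and by 2.01 to 3.25 in replicate 3. The difference in replicate 1 was 35.2% to 58.4% of the mean of the other two on the log2 scale, with a median of 43.3%. Replicate 1 was the highest low arginine array for 12 of 12 mitotic kinesins, for 5 of 25 other kinesins (20%), for 46.9% of the 1032 genes that fell and for 31.1% of all genes tested. The proliferation marker Mki67 had the same order, at 9.97, 10.05 and 9.99 in control and 9.27, 8.03 and 7.83 in low arginine (change -1.63, adjusted p = 0.0229). Without low arginine replicate 1 the 11 kinesins were still called.

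**Figure D3:**
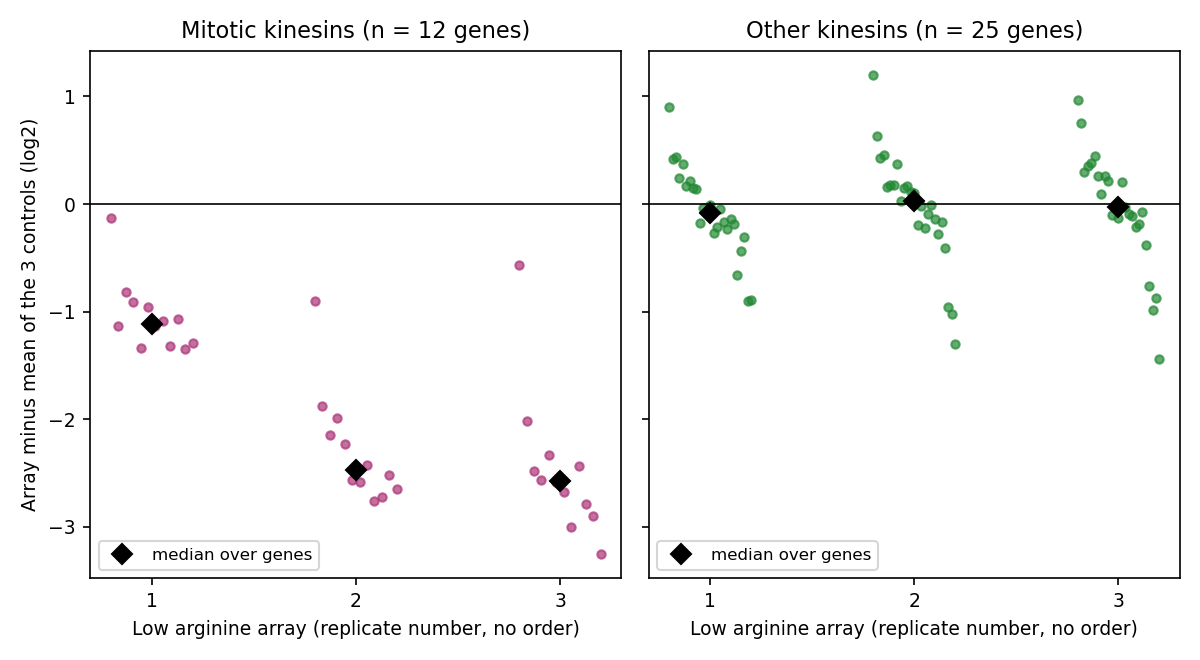
Each point is 1 kinesin gene in 1 low arginine array, as its log2 value minus the mean of the 3 controls, for 12 mitotic (left) and 25 other (right) kinesins, set side by side in order of the mean change, with the median over genes as a diamond. The mitotic medians are -1.11, -2.47 and -2.57 in replicates 1, 2 and 3, and those of the other kinesins are -0.08, 0.03 and -0.03.

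Of the 25 other kinesins tested, 2 fell and 1 rose, or 8% and 4%, against 6.98% and 5.19% of all genes tested. These shares are near the background. The groups did not overlap for 4 lower and 4 higher, or 16% each way, where 16.2% and 16% of all genes did. With array weights, which ran from 0.239 for control replicate 1 to 5.19 for control replicate 2, 7 fell (Kif24 and Kif2a, with Kif5a, Kif3a, Kif3c, Kifc2 and Kifc5b) and 2 rose (Kif1b and Kif5b). These weights gave more calls in both directions over all genes as well, with the counts in the last section. Leaving out control replicate 1 gave 4 lower and 2 higher, control replicate 2 gave 1 and 2, and low arginine replicate 2 gave 1 and 1. Over all genes tested, leaving out control replicate 1 gave 1699 lower and 1626 higher, against 1032 and 767 with all arrays. The lower count was 338 without control replicate 2, and the higher count 161 without low arginine replicate 2.

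Both kinesins of this class that fell belong to kinesin-13, the family of Kif2c. Kif24, which sits on centrioles and restrains the growth of cilia, read 5.33, 5.16 and 5.15 in control and 4.33, 3.91 and 3.77 in low arginine. It fell by 1.21 (SE 0.16, adjusted p = 0.00536), passed in all 15 alternatives and, like the mitotic kinesins, was highest in replicate 1 among low arginine arrays. Kif2a, which takes microtubule ends apart at spindle poles and also outside mitosis, had 6.94, 7.39 and 7.38 in control and 6.34, 6.22 and 6.36 in low arginine. Its fall of 0.93 (SE 0.15, adjusted p = 0.00963) was alike in the 3 low arginine arrays, at 0.90, 1.02 and 0.87 below the control mean, so that replicate 1 did not stand apart. Leaving out replicate 2 of control (adjusted p = 0.0516) or of low arginine (0.0529) ended the call of Kif2a. Kif2b, the remaining kinesin-13, lay under the dim limit at a mean of 2.33.

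The kinesin that rose was Kif1b, a kinesin-3 that carries mitochondria and vesicles. It stood at 5.10, 5.39 and 5.48 in control and 6.22, 6.53 and 6.29 in low arginine, with no overlap. The rise of 1.02 (SE 0.14, adjusted p = 0.00635), 2.03-fold, was past the threshold in all 15 alternatives. Its family held members that moved in opposite directions, since the kinesin-3 Kif14 fell by 2.40. The other kinesin-3 genes did not pass: Kif1c, a vesicle carrier, changed by -0.40 (95% interval -0.77 to -0.04, adjusted p = 0.144) and Kif13a, an endosome carrier, by 0.39 (0.06 to 0.72, adjusted p = 0.123).

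**Figure D4:**
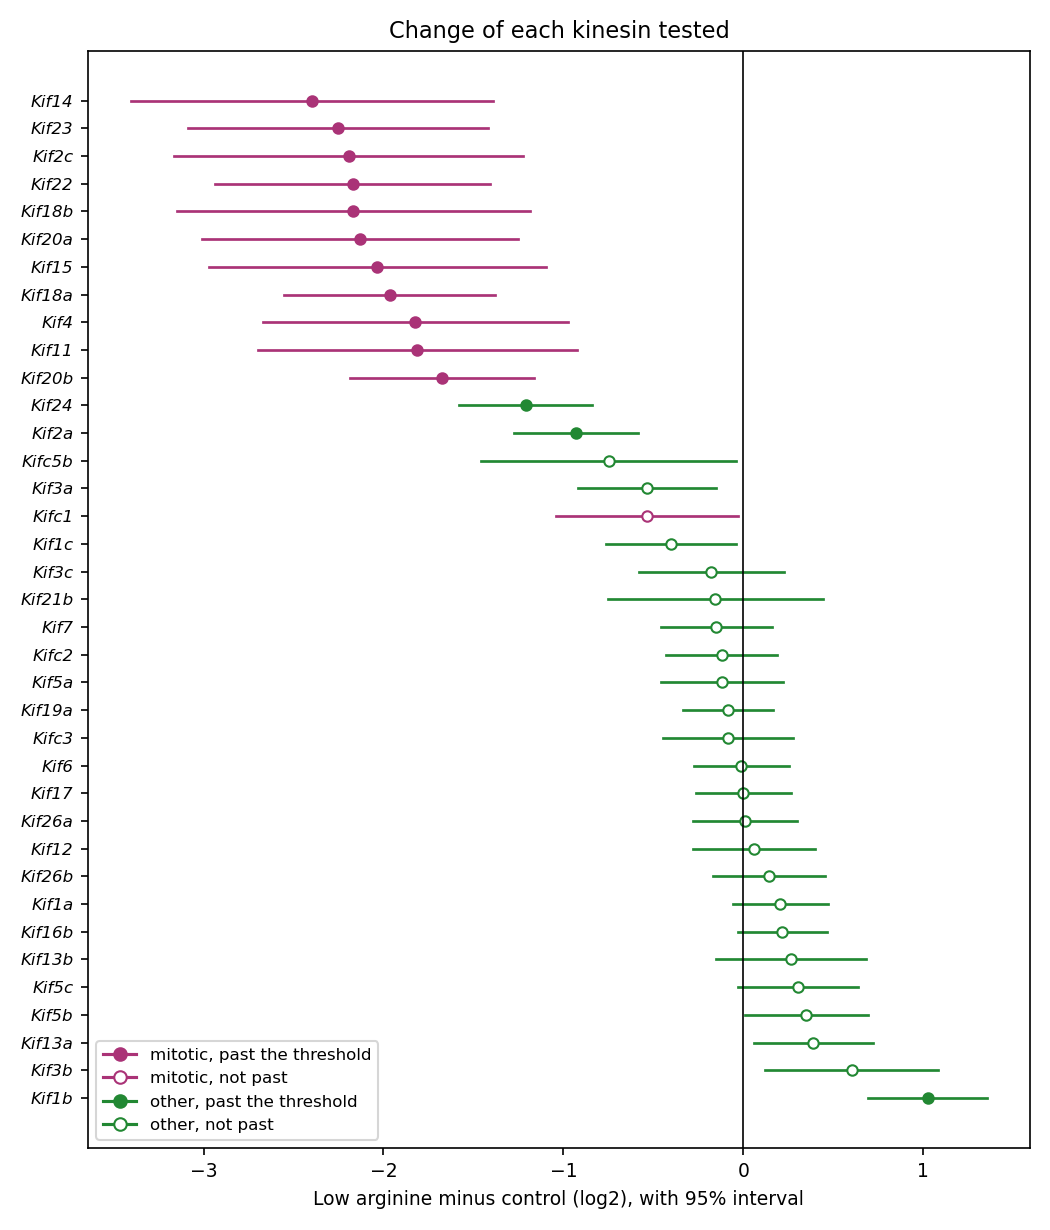
The change of each of the 37 kinesins tested is shown in log2 units (low arginine minus control) with its 95% interval from limma, filled where the adjusted p was below 0.05. The 11 mitotic kinesins that fell lie between -2.40 and -1.68, and Kif24 and Kif2a follow at -1.21 and -0.93. Kif1b, at 1.02, is the only filled point on the higher side.

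The cargo motors named for their bright probe sets did not pass. Kif5b, the widespread heavy chain of conventional kinesin (kinesin-1), read 8.57, 8.24 and 8.08 in control and 8.54, 8.75 and 8.65 in low arginine. The groups overlapped through control replicate 1, and the change was 0.35 (95% interval 0.01 to 0.69, adjusted p = 0.175). Without control replicate 1 it was 0.48 (adjusted p = 0.0239). A second, dimmer probe set of Kif5b, at a mean of 3.02, changed by 0.18. Kif21b, a kinesin-4 that restrains microtubule growth in T cells, varied among controls at 7.43, 8.17 and 8.56 and hardly in low arginine at 7.91, 7.91 and 7.87, for a change of -0.15 (-0.75 to 0.44, adjusted p = 0.767). Without control replicate 1 it was -0.47 (adjusted p = 0.0470), and without control replicate 3 the sign turned, at 0.10 (adjusted p = 0.829). Kif16b and Kif13b, both of endosome transport, changed by 0.22 (-0.03 to 0.47, adjusted p = 0.244) and 0.26 (-0.15 to 0.68, adjusted p = 0.409).

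The partners Kif3a and Kif3b, which join with Kifap3 to form kinesin-2 of cilia and vesicle traffic, had changes of opposite sign, and neither passed. Kif3a read 5.57, 5.07 and 5.21 in control and 4.85, 4.88 and 4.53 in low arginine, without overlap, a change of -0.53 (95% interval -0.92 to -0.15, adjusted p = 0.0781). Kif3b gave 5.74, 6.54 and 6.00 against 6.51, 6.73 and 6.84, with overlap, a change of 0.60 (0.12 to 1.08, adjusted p = 0.104). Kifap3, named after its value was seen, changed by -0.34 (adjusted p = 0.170). Without control replicate 2 Kif3b passed, at 0.82 (adjusted p = 0.0498), and with array weights Kif3a did, at -0.34 (adjusted p = 0.0445). A probe set that carries the symbol of Kif3c beside that of another gene was left out, and it changed by 0.43 where the probe set of Kif3c alone changed by -0.18.

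Among all 22 other kinesins that were not called, changes ran from -0.75 (Kifc5b) to 0.60 (Kif3b), and 14 were smaller than 0.25 in size. For 20 of the 22 the 95% interval lay within 1 unit of 0, and for 12 within 0.50. An unadjusted p below 0.05 was found for 6 of them. Kif17, Kif5a, Kif5c, Kif1a, Kif6, Kif26a, Kif26b, Kif12, Kif19a, Kifc2 and Kifc3 had mean levels within 1 unit of the dim limit, so falls from these levels could hardly have been measured. Kif7, which acts in Hedgehog signalling at cilia, changed by -0.15 (adjusted p = 0.540). Of the 42 kinesins, 5 were left out as dim, with mean levels of 2.05 to 2.44: Kif27, Kif21a, Kif4-ps, Kif2b and Kif9.

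Partners of the mitotic kinesins followed them, on a list chosen with earlier results of these data known. Of 32 partners and regulators tested, 22 fell (68.8%, against 6.98% of all genes), with a median change of -1.73. Hmmr, a spindle protein that helps to place Tpx2, fell by 2.58 (adjusted p = 0.00815), Aurkb, the kinase of the chromosomal passenger complex, by 2.55 (0.00974), and Plk1, the polo kinase that binds Kif20a, by 2.54 (0.00958). Of genes named here for their link to the kinesins, outside the rule and after their values were seen, Cenpe, a kinetochore motor of kinesin-7 whose symbol lies outside the Kif names, read 8.29, 8.55 and 8.46 in control and 7.07, 5.60 and 5.29 in low arginine and fell by 2.45 (SE 0.41, adjusted p = 0.0116). Racgap1, which forms centralspindlin with Kif23, fell by 1.56 (adjusted p = 0.0175), Prc1, the partner of Kif4, by 2.01 (0.00930), and Cit, the citron kinase that Kif14 binds, by 1.93 (0.0161). The importin Kpnb1, which holds spindle factors inactive, changed by -0.39 (adjusted p = 0.151). Leaving out replicate 2 gave 4 (of low arginine) or 6 (of control), and leaving out low arginine replicate 3 gave 12. Over all genes tested, 338 were lower without control replicate 2, against 1032 with all arrays.

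Of 25 light chains and adaptors of transport kinesins tested, 1 fell and 1 rose (4% each, against 6.98% and 5.19% of all genes tested), with a median of 0.08. These shares are near the background. Fez2, an adaptor of kinesin-1, fell by 0.78 (adjusted p = 0.0119), and Ppfia1, a liprin that binds kinesin-3 motors, rose by 0.37 (adjusted p = 0.0456). Ppfia1 passed in 5 of the 15 alternatives, and its call ended under all 3 other scalings, with the trended prior or the replicate block, and when any array but control replicate 1 was left out. The call of Fez2 ended without replicate 2 or 3 of low arginine. Without control replicate 1 the adaptors numbered 3 lower and 2 higher, when all genes tested numbered 1699 lower and 1626 higher. Pafah1b1 (Lis1), the brightest of the list, is known mainly as a regulator of dynein and changed by 0.17 (adjusted p = 0.400). Of 28 genes of cytoplasmic dynein, dynactin and their adaptors, 3 fell (10.7%, against 6.98% of all genes tested), with a median of -0.15. This share lies near the background for the values as deposited, but more of the list fell under all 3 other scalings. Non-overlap towards lower values was seen for 10 of the 28 (35.7%, against 16.2% of all genes tested). The genes that fell were Spdl1, which loads dynein onto kinetochores, by 1.13 (adjusted p = 0.00958), the light chain Dynlt3 by 0.86 (0.0104) and Nde1, a dynein regulator needed in mitosis, by 0.85 (0.0311). The call of Nde1 ended in 5 of the 15 alternatives. The dynein heavy chain Dync1h1, named after its value was seen, changed by 0.40 (adjusted p = 0.0550) and the capping subunit Capzb by -0.15 (adjusted p = 0.491).

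The list of 16 tubulins held the alpha and beta subunits of the track itself and also gamma, delta and epsilon tubulins. Of the 16, 4 fell (25%, against 6.98% of all genes tested), with a median of -0.34. Tube1, the centriole tubulin, fell by 1.72 (adjusted p = 0.0168), the beta tubulin Tubb6 by 1.63 (0.00280), the alpha tubulin Tuba1c by 1.18 (0.0184) and Tubg1, the gamma tubulin that starts microtubules, by 0.50 (0.0495). Tubg1, which lies outside the rule and was named after its value was seen, passed in 6 of the 15 alternatives, and its call ended after quantile normalization, with no filter on dim genes, with the trended prior and with the replicate block. Tubb6 passed in all 15. Tubb5, the tubulin with the brightest probe set, changed by -0.43 (adjusted p = 0.0853). Alpha tubulins are close copies of one another, as are beta tubulins, so probe sets within each kind may share signal. There were 6 tubulins lower without control replicate 1, and 1 when control replicate 2 or either of low arginine replicates 2 and 3 was left out. Of all genes tested, 1699 were lower without control replicate 1 and 338 without control replicate 2. The dynein list had 7 lower without control replicate 1 and 1 without control replicate 2 or low arginine replicate 2, and with centring of arrays at the 75th percentile it had 6. In that setting all genes split into 1190 lower and 535 higher, against 1032 and 767 as deposited.

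**Figure D5:**
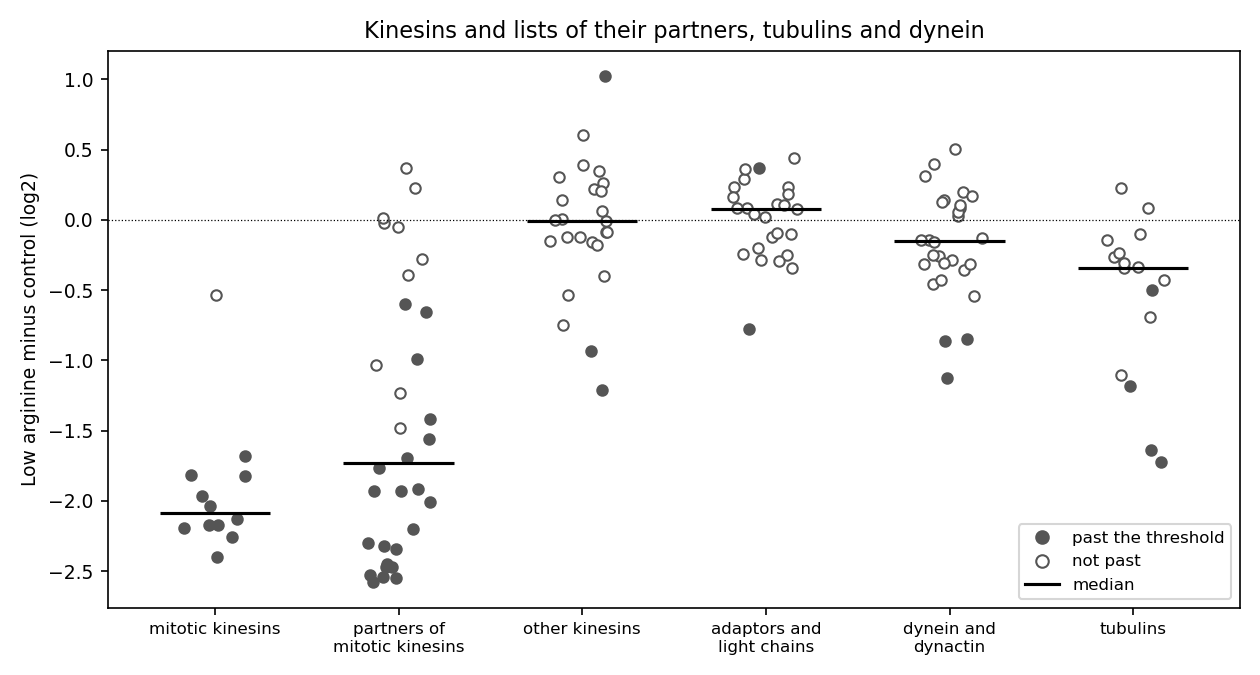
Each point is the change of 1 tested gene in log2 units (low arginine minus control), filled where the adjusted p was below 0.05, with bars at the medians, for both kinesin classes and the lists of partners. The medians are -2.08 for mitotic kinesins and -1.73 for their partners, and lie between -0.34 and 0.08 for the other 4 groups.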

How the data were processed

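Expression was measured on 6 arrays, 3 per group. The deposited values were log2 expression per probe set (log base taken from their range, 0.956 to 12.41), which the authors made with the oligo package, per the submitters' processing notes. For its version, background correction and normalization, the sources used here give nothing. The near-equal array medians show that arrays had been scaled to each other, so a change shared by all genes would not be seen. No detection calls or scanner signals were used.

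Of 41345 probe sets, 23521 carried exactly 1 gene symbol, 1814 several and 16010 none. The brightest per gene was kept (22180 genes), the dimmest 0.333 of genes by mean level was left out (7393 genes, limit 2.48), and 14787 genes were tested with limma 3.58.1 in R 4.3.3 (lmFit, eBayes, group only, 4 residual degrees of freedom). The script was tested on simulated data. The labels do not say whether replicates came from separate mice, so p-values refer to the spread between these arrays. In limma this spread is moderated by that of all genes tested (3.69 prior degrees of freedom). The SE, intervals and p-values take 1 spread for both groups, although the SD was larger in low arginine for all 12 mitotic kinesins. Of 121 names in 4 pathway lists, 106 were matched, and the erythroid markers were not analysed here.

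The members and lists were chosen with earlier results of these data known. All kinesins are accounted for, with values for the 12 mitotic kinesins, all others past the threshold, the 5 brightest and the 3 largest changes each way among the rest, and from each list the 3 largest changes called each way and the brightest member. Figures were drawn with matplotlib 3.10.9.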

Additional observations from a re-analysis of the deposited data

How the results depend on the processing

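The alternatives were quantile normalization, centring on the median or 75th percentile, no filter on dim genes or a filter at the median, the mean of probe sets, a trended and robust prior, a block for replicate number, array weights, and single arrays left out in turn. The mitotic kinesins called stayed at 11 in the 9 alternatives that kept all arrays. With array weights the counts were 2737 lower and 2777 higher over all genes and 7 and 2 for the other kinesins. They were 6 and 4 for adaptors, 11 and 4 for dynein and 11 and 1 for tubulins. Among partners of mitotic kinesins, the 22 that fell in the main fit stayed past the threshold with these weights, and 1 partner was higher. Dynein had 6, 5 and 6 lower after quantile normalization, median centring and 75th percentile centring. Higher adaptors numbered 0 in those 3 settings, with the trended prior and with the replicate block. The cause was not tested.

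Leaving out single arrays gave 338 to 1699 lower and 161 to 1626 higher over all genes, 3 to 11 lower mitotic kinesins, and 1 to 4 lower and 1 to 2 higher among the others. It gave 4 to 23 lower partners, 0 to 3 lower and 0 to 2 higher adaptors, 1 to 7 lower and 0 to 1 higher for dynein, and 1 to 6 lower tubulins. Replicate numbers were not taken as pairs: same-numbered arrays correlated in their deviations from the group means by 0.121, 0.0588 and 0.141 over genes, and each array correlated best with its own number, a hint from the data only. With the replicate block, 936 genes were lower and 632 higher, 11 mitotic kinesins and 2 others were lower and 1 was higher, with 21 partners, 1 adaptor, 2 dynein genes and 4 tubulins lower. Scaling turned the sign of Kif17 and Kif26a, whose changes were 0.01 or smaller. Arrays have no depth, and 3 per group limit the precision.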
